A study of Mus musculus with 24 samples.

Results

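The 10 genes described here encode transcription regulators of the mesenchymal state of neuroblastoma cells: Prrx1, Twist1, Snai2, Fosl1, Fosl2, Runx1, Runx2, Yap1, Wwtr1 and Zeb2. They were taken by gene symbol from a table of 21833 protein-coding genes, and all 10 were found there. Poly(A)-enriched, strand-specific RNA-seq of 24 mouse samples was analysed in 4 groups. The normal glands (AG, n = 3) came from mice labelled CRE -. The glands termed AGM (n = 5) were free of tumors and came from mice heterozygous for a MYCN transgene and positive for Cre (MYCN +/-, CRE +). TI (n = 8) denotes neuroblastomas that arose with IGF2BP1 and Cre, of which 7 were labelled IGF2BP1 +/+ and 1 IGF2BP1 +/-. TIM (n = 8) denotes neuroblastomas labelled IMP1/MYCN, CRE +, IMP1 being another name of IGF2BP1. The transgenes lay in the Rosa26 locus behind a stop cassette, and a Cre recombinase under the Dbh promoter removed the cassette in cells of the sympatho-adrenal lineage, so other cells of a gland or tumor piece carried a silent transgene. The IGF2BP1 transgene lacked the 3' untranslated region of the gene. Ages were not given in the labels. The study reports a shorter median survival for mice with both transgenes than for homozygous IGF2BP1 mice. It culled the MYCN mice at an older age than the homozygous IGF2BP1 mice. Age may thus differ between AGM, TI and TIM along with the group. The labels named adrenal gland as the site of 1 TI and 2 TIM tumors and spine for 1 TIM tumor, and gave no site for the others.

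Neuroblastoma cells are known to take an adrenergic state or a mesenchymal state that resembles neural crest cells and fibroblasts. PRRX1 is a homeodomain factor that can push cells towards the mesenchymal state. TWIST1, SNAI2 and ZEB2 are factors of the epithelial-mesenchymal transition (EMT), and ZEB2 also acts in neural crest and in myeloid cells. FOSL1 and FOSL2 are FOS-family subunits of AP-1, which pair with JUN proteins. RUNX1 and RUNX2 bind DNA with the partner CBFB and are best known from blood and bone. YAP (Yap1) and TAZ (Wwtr1) are coactivators that are held back by the kinases of the Hippo pathway and bind DNA through TEAD factors.

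Yap1, Wwtr1, Zeb2, Fosl2 and Runx2 were lower in both tumor groups than in normal adrenal glands. None of the 10 genes reached 1 FPKM (fragments scaled by gene length and library size) in all tumors of a group. Twist1 stood apart, with high levels in AGM and in 4 of 8 TIM tumors and low levels in AG and TI. Prrx1, Snai2, Fosl1 and Runx1 did not pass the test against AG in either tumor group.

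The promoters of Yap1 and Wwtr1 are shown because Yap1 gave the smallest false discovery rate of the members against AG in both tumor groups, Wwtr1 is its paralog, and both hold the letters GGAATG, the core of the TEAD motif. Both are read 5' to 3' on the minus strand of GRCm39 (mm39), the build of the files, with matches to the motifs searched in capitals. The Yap1 stretch is chr9:8004662-8004911, and the Wwtr1 stretch is chr3:57483332-57483499, which leaves out the bases that lie inside the annotated span of the gene.
Yap1: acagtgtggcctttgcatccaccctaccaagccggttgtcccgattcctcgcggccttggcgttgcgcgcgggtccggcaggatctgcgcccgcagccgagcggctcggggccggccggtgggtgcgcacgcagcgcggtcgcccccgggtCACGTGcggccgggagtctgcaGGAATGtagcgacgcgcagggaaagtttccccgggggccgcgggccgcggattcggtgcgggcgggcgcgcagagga
Wwtr1: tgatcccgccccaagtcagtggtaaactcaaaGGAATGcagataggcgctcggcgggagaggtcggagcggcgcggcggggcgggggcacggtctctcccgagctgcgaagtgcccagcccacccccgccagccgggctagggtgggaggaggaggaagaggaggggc
The Yap1 match to GGAATG began 77 bases and that of Wwtr1 218 bases before the start of the canonical transcript. Over the 250 bases before the start, GGAATG on either strand was found in 12% of the 21687 promoters searched and in 4 of the 10 members, which were Prrx1, Fosl1, Yap1 and Wwtr1. The E-box letters CACGTG were found in 6.31% of promoters and in Yap1 (99 bases before the start), CAGGTG in 17.7% and in Runx1, the RUNX letters TGTGGT in 13.2% and in Runx1, and the AP-1 letters TGANTCA in 6.17% and in none of the 10. The GC content of these 250 bases was 74% in Yap1 and 67.2% in Wwtr1, beside a median of 53.2% over all promoters.

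Tests were run with limma on log2(FPKM + 1) for the 10171 genes that reached 1 FPKM in 3 or more libraries, with a false discovery rate (FDR) below 0.05 as the threshold. Fold changes on this scale understate the change of low genes. Twist1, Fosl2, Yap1, Wwtr1 and Zeb2 passed the filter. Yap1 passed only through its gland values, Zeb2 only through AG and Twist1 only through AGM and TIM. Some listed genes also passed through 1 group only, as Snai1 did through AGM and Batf3 through TI. A difference of such genes between groups was favoured by the filter. Prrx1, Snai2, Fosl1, Runx1 and Runx2 stayed below 1 FPKM in every library and were tested by exact permutation, two-sided, on RPM (reads per 1000000 reads outside the 126 genes that exceeded 1000 FPKM in a library), with adjustment over the 5 contrasts. The labels did not say that each sample came from a separate animal, so p-values measure only the spread between these samples, which may be technical. The AG samples shared no sequencing run with AGM or TIM, and run and group cannot be told apart there. Of the TI samples, 6 were in run 1, which held no TIM sample, so run and group overlap little in TIM vs TI. In whole tissue, fewer cells of a type and less RNA per cell cannot be told apart either. The share of all genes whose ranges do not overlap between 2 groups was not counted. Statements that ranges do not overlap therefore only describe the gene named. Recovered reads summed to 17434796 to 17893013 per library in AG and 12468968 to 21353172 in TI, but to 116740738 to 1170004708 in AGM and 58530450 to 888626365 in TIM, a difference between groups in the deposited values. Outside the 126 genes they were 12334076 to 23683176 in all libraries.

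The tissue labels were checked with marker genes. The 6 adrenal cortex markers summed to 506 to 536 FPKM in AG and 2372 to 3168 FPKM in AGM, but to at most 7.15 FPKM in TI and 5.81 FPKM in TIM. Dbh, which encodes an enzyme of noradrenaline synthesis, was higher in tumors than in AG by 2.36 in TI and 3.08 in TIM on the log2(FPKM + 1) scale (limma FDR 0.00837 and 0.00102). It was also higher in AGM than in AG by 2.58 (limma FDR 0.0155), and TIM vs AGM was not called (0.50, limma FDR 0.477). Th and Chga, of the same list, were not called in TI vs AG (limma FDR 0.070 and 1.0).

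**Figure D1:**
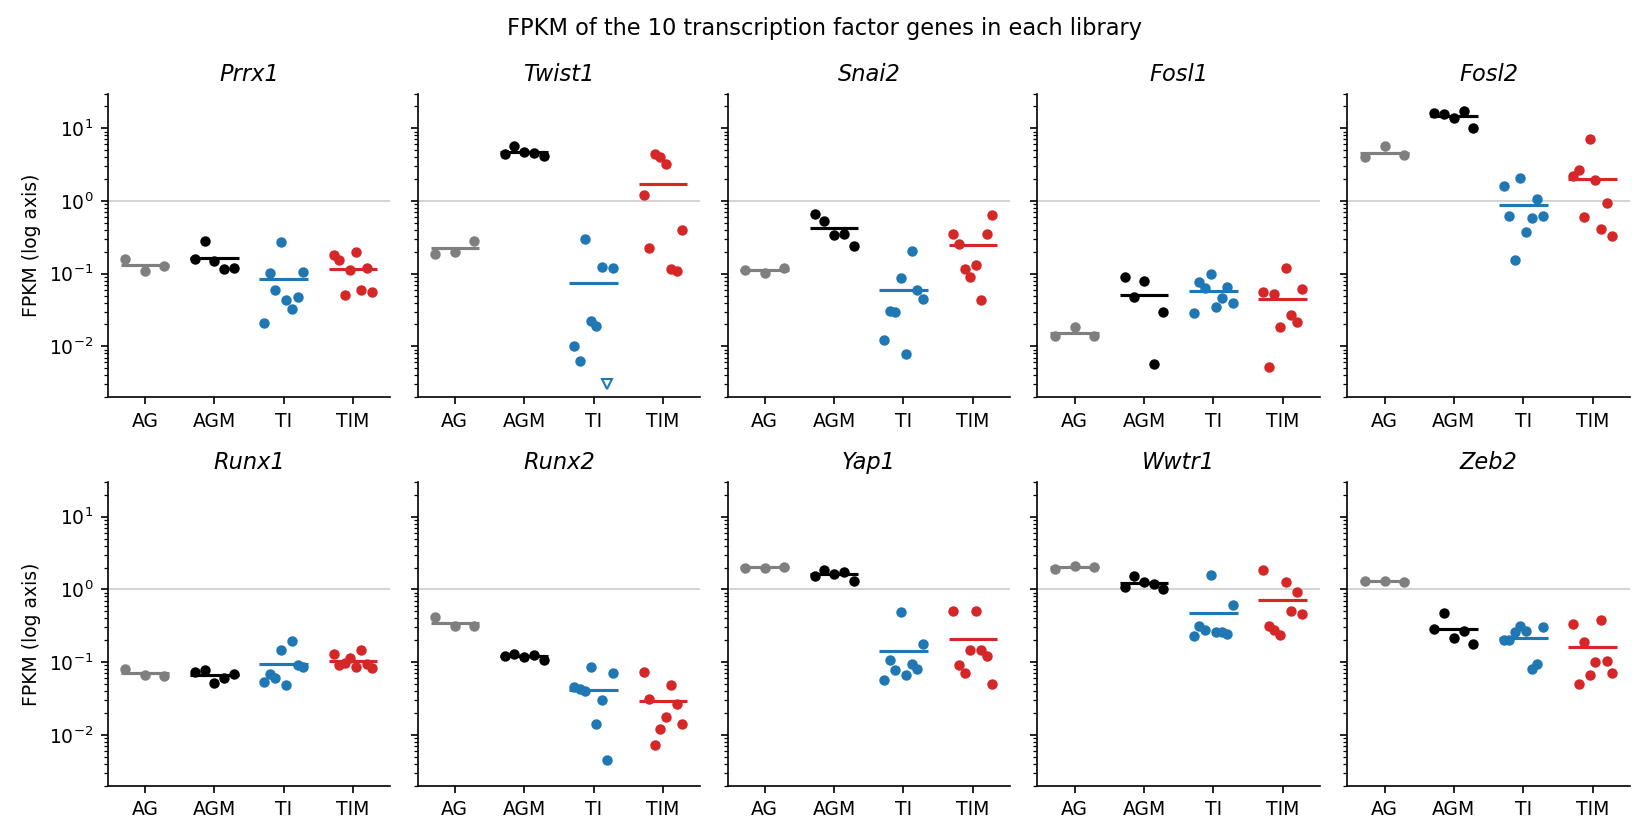
FPKM of the 10 genes on a log axis, with 1 point per library and a line at the group mean, for AG (n = 3), AGM (n = 5), TI (n = 8) and TIM (n = 8). An open triangle marks 1 TI library with 0 reads of Twist1, and the grey line marks 1 FPKM. Yap1 and Runx2 were lower in every tumor than in every AG library, whereas Twist1 was high in AGM and in 4 TIM tumors.

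Yap1 (chr9:7932000-8004661, minus strand) fell in both tumor groups. Its level was 1.98, 1.99 and 2.04 FPKM in AG and 1.51, 1.86, 1.61, 1.74 and 1.32 FPKM in AGM. In TI it ranged from 0.0569 to 0.487 FPKM (median 0.0876), and in TIM from 0.0497 to 0.509 FPKM (median 0.133). No tumor reached the lowest gland. Yap1 passed the filter only through its gland values, so the calls of tumors against glands were favoured by the filter. The mean was 13.9-fold lower in TI (21.1-fold without the highest TI library) and 9.76-fold lower in TIM than in AG. The log2 fold change was -1.40 ± 0.12 (SE) in TI and -1.33 ± 0.12 in TIM (limma FDR 7.88e-10 and 1.96e-09), in contrasts in which 52.4% (TI vs AG) and 51% (TIM vs AG) of all tested genes were called. Against AGM, the mean of TIM was 7.83-fold lower (log2 fold change -1.12 ± 0.10, limma FDR 1.18e-09), where 65.3% of tested genes were called. TIM and TI did not differ by the test (0.07 ± 0.09, limma FDR 0.604), in a contrast with 22.9% of genes called.

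Wwtr1 (chr3:57363067-57483331, minus strand), which encodes TAZ, fell less than its paralog. It measured 1.92, 2.1 and 2.05 FPKM in AG and 1.08, 1.53, 1.28, 1.19 and 1.01 FPKM in AGM. TI libraries held 0.225 to 1.59 FPKM (median 0.267) and TIM libraries 0.240 to 1.83 FPKM (median 0.478). All tumors lay below AG, while the ranges of TIM and AGM overlapped. The mean was 4.29-fold lower in TI (6.49-fold without the highest TI library) and 2.79-fold lower in TIM than in AG (log2 fold change -1.09 ± 0.22 and -0.87 ± 0.22, limma FDR 0.000298 and 0.00247). TIM vs AGM missed the threshold (-0.42 ± 0.19, limma FDR 0.0558), as did TIM vs TI (0.22 ± 0.17, limma FDR 0.363).

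In AGM against AG, Yap1 and Wwtr1 did not pass the test on the deposited scale (-0.21 ± 0.13 and -0.45 ± 0.24, limma FDR 0.229 and 0.170) when all groups set the spread, in a contrast with 28.6% of genes called. All 5 AGM libraries lay below all 3 AG libraries for both genes. When FPKM was recomputed without the 126 genes above 1000 FPKM, which moved the median of all genes in this contrast to -0.27, the values became -0.49 and -0.72 and passed (limma FDR 0.0047 and 0.020). Both also passed by limma-voom on recovered reads (-0.81 and -1.24, limma FDR 0.0415 and 0.0217), where the median of all genes moved to -0.50. On the deposited scale both passed when AGM and AG alone set the spread (limma FDR 0.0396 and 0.00176).

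Within a library, the ratio of Wwtr1 to Yap1 separated glands from tumors. The log2 ratio of their FPKM was 0.02 ± 0.07 (SD, n = 3) in AG and -0.40 ± 0.11 (SD, n = 5) in AGM, and rose to 1.73 ± 0.19 (SD, n = 8) in TI and 1.94 ± 0.80 (SD, n = 8) in TIM. Wwtr1 thus exceeded Yap1 in each of the 16 tumors and in none of the 5 AGM glands. The difference from AG was 1.71 in TI and 1.92 in TIM (exact permutation test, adjusted p = 0.0101 for both, over 15 tests of ratios). TIM exceeded AGM by 2.34 (exact permutation, adjusted p = 0.00583) and did not differ from TI by the test (0.21, exact permutation, adjusted p = 0.505). The ratio and the other ratios of related genes below were chosen after the values were seen. The scaling of a library cancels in these ratios, but a batch correction made gene by gene need not. AG shared no run with AGM or TIM, and the part of the run in these ratios was not tested.

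**Figure D2:**
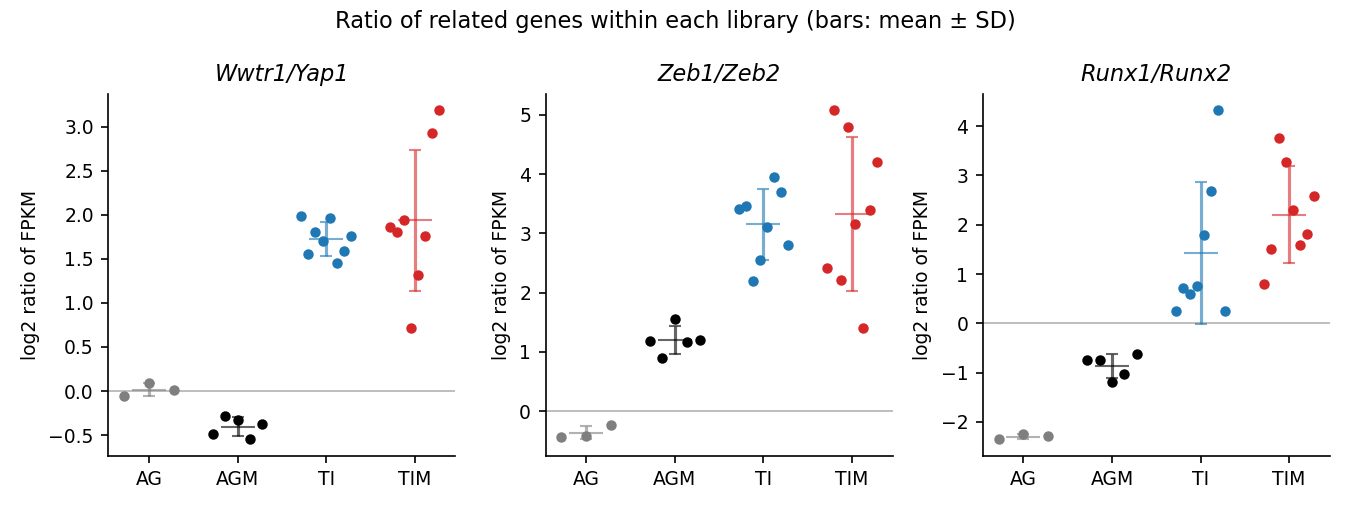
Log2 ratio of FPKM of related genes in each library, with points for libraries and bars for the group mean ± SD, for Wwtr1/Yap1, Zeb1/Zeb2 and Runx1/Runx2. In all 16 tumors the first gene of each pair exceeded the second, and all AG libraries lay below the lowest tumor.

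Within the tumor groups, Yap1 and Wwtr1 were compared with markers of other cell types. One TI library held the highest value of 7 of the 10 members, Yap1 and Wwtr1 included, and the highest sums of fibroblast and stroma markers (147 FPKM, range of TI 15.1 to 147), endothelial markers (19.8 FPKM, range 2.01 to 19.8) and adrenal capsule markers. Without it, the mean of TI was 21.1-fold below AG for Yap1 and 6.49-fold below AG for Wwtr1, and the log2 fold changes were -1.46 for Yap1 and -1.21 for Wwtr1 (limma FDR 1.18e-10 and 1.41e-05). Over the 8 TI tumors, Wwtr1 correlated with the mean log2(FPKM + 1) of 9 fibroblast and stroma markers (Pearson r = 0.944, Spearman rho = 0.881). Exact permutation p-values, adjusted over 160 relations of members with marker lists, were 0.031 and 0.246. Without the 2 tumors farthest from the median, r was 0.811. Yap1 gave r = 0.925 in TI (rho = 0.762, exact permutation, adjusted p = 0.0926 and 0.294), which dropped to 0.430 without the 2 farthest tumors, so it rests on these. In TIM the values were 0.77 for Yap1 and 0.80 for Wwtr1 (adjusted p = 0.166 for both, exact permutation), with rho = 0.595 for both, and r was 0.0647 and 0.441 without the 2 farthest tumors. Yap1 correlated with Schwann cell markers in TIM (r = 0.971, rho = 0.929, adjusted p = 0.031 and 0.179, exact permutation), where 1 TIM library held 44.3 FPKM of them, and r was 0.678 without the 2 farthest tumors. The summed stroma markers were 21.5 to 25.4 FPKM in AG, 15.7 to 25.4 in AGM and 21.7 to 47.2 in TIM, but the sum joins genes that went both ways. Of the 9 markers, 3 rose, 3 fell and 3 did not pass in each tumor group against AG. The share called was 66.7% in both, beside 52.4% (TI) and 51% (TIM) of all tested genes. The fibroblast genes Dcn, Lum and Pdgfra fell by 2.40, 1.99 and 1.42 in TI (limma FDR 1.24e-05, 4.78e-09 and 2.64e-10) and by 2.24, 1.96 and 1.43 in TIM (limma FDR 3.03e-05, 6.33e-09 and 2.42e-10), and Acta2, Col1a1 and Rgs5 rose. Endothelial markers were 15.4 to 16.5 FPKM in AG, 10.9 to 12.6 in AGM and 1.15 to 6.73 in TIM. Each of the 8 marker lists except the endothelial and the sympathoadrenal list held genes at 0 in a tumor library. The part of these cells in the differences of Yap1 and Wwtr1 was not tested.

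**Figure D3:**
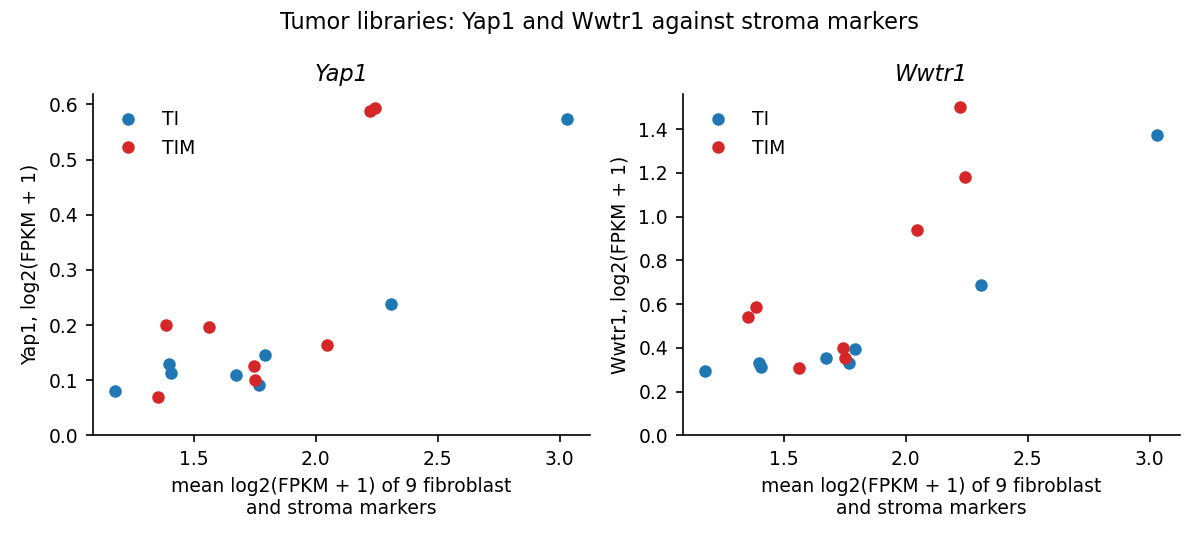
Yap1 and Wwtr1 in log2(FPKM + 1) against the mean log2(FPKM + 1) of 9 fibroblast and stroma markers in 8 TI and 8 TIM tumors, with 1 point per tumor. The TI tumor at the right, with the highest marker level, also held the highest Yap1 and Wwtr1 of TI.

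In tumors against AG, the called targets of YAP and TAZ moved in both directions, while all called Hippo pathway genes fell. Of 8 Hippo pathway genes, 5 passed the filter. The share of these called against AG was 40% in TI and 80% in TIM, beside 52.4% and 51% of all tested genes. In TI vs AG, 2 fell and 3 did not pass, and in TIM vs AG 4 fell (Sav1, a scaffold of the kinases, by 0.70, limma FDR 9.15e-05), beside a median of -0.21 and -0.70 for the list and about 0 for all genes (0.00 in both). Mob1a, an activator of the LATS kinases, changed by -1.14 in TI and -1.35 in TIM (limma FDR 4.03e-05 and 4.83e-06), and Nf2, which encodes the scaffold Merlin, by -0.67 and -0.88 (limma FDR 0.00279 and 0.000206). In AGM vs AG, 4 of the 5 tested Hippo genes fell as well, 80% called beside 28.6% of all tested genes. Mob1a and Nf2 were among them (-0.76 and -0.77, limma FDR 0.00994 and 0.0038). TIM vs AGM called 20% of the list, beside 65.3% of all tested genes. Of 6 TEAD and VGLL genes, 2 passed the filter, and neither was called against AG in tumors. Tead1, a TEAD factor, measured 1.05 ± 0.07 FPKM in AG, 1.25 ± 0.42 in TI and 1.02 ± 0.40 in TIM (SD, n = 3, 8 and 8).

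Of 22 known YAP/TAZ targets, 13 were tested. In TI vs AG 3 rose, 5 fell and 5 did not pass (median -0.40), and in TIM vs AG the counts were also 3, 5 and 5 (median -0.19). The share called, 61.5% in both, lay near the 52.4% and 51% of all tested genes. Amotl2, an angiomotin-family gene, fell most, from 16.2 ± 6.82 FPKM in AG to 0.749 ± 0.228 in TI and 0.793 ± 0.422 in TIM (SD), a log2 fold change of -3.21 and -3.20 (limma FDR 1.38e-11 and 1.44e-11). Gadd45b, a stress-response gene, fell by 1.76 in both tumor groups on the log2 scale (limma FDR 6.38e-06 and 6.68e-06), and Wwc1, which encodes the Hippo regulator KIBRA, by 1.49 and 1.41 (limma FDR 2.63e-05 and 5.29e-05). Ajuba, a LIM-domain scaffold, fell by 1.40 and 1.18 (limma FDR 7.16e-09 and 1.04e-07). In the opposite direction, Ccn1, a matricellular protein gene, rose by 1.06 and 1.21 (limma FDR 0.0459 and 0.0251), Fjx1 by 0.56 and 1.21 (limma FDR 0.0219 and 2.36e-05), and Rbms3, an RNA-binding protein gene, by 1.30 and 0.59 (limma FDR 5.94e-05 and 0.0373). Ccn2, the other matricellular target in common use, measured 2.50 ± 0.233 FPKM in AG, 4.22 ± 4.23 in TI and 6.50 ± 4.04 in TIM (SD) and was not called.

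**Figure D4:**
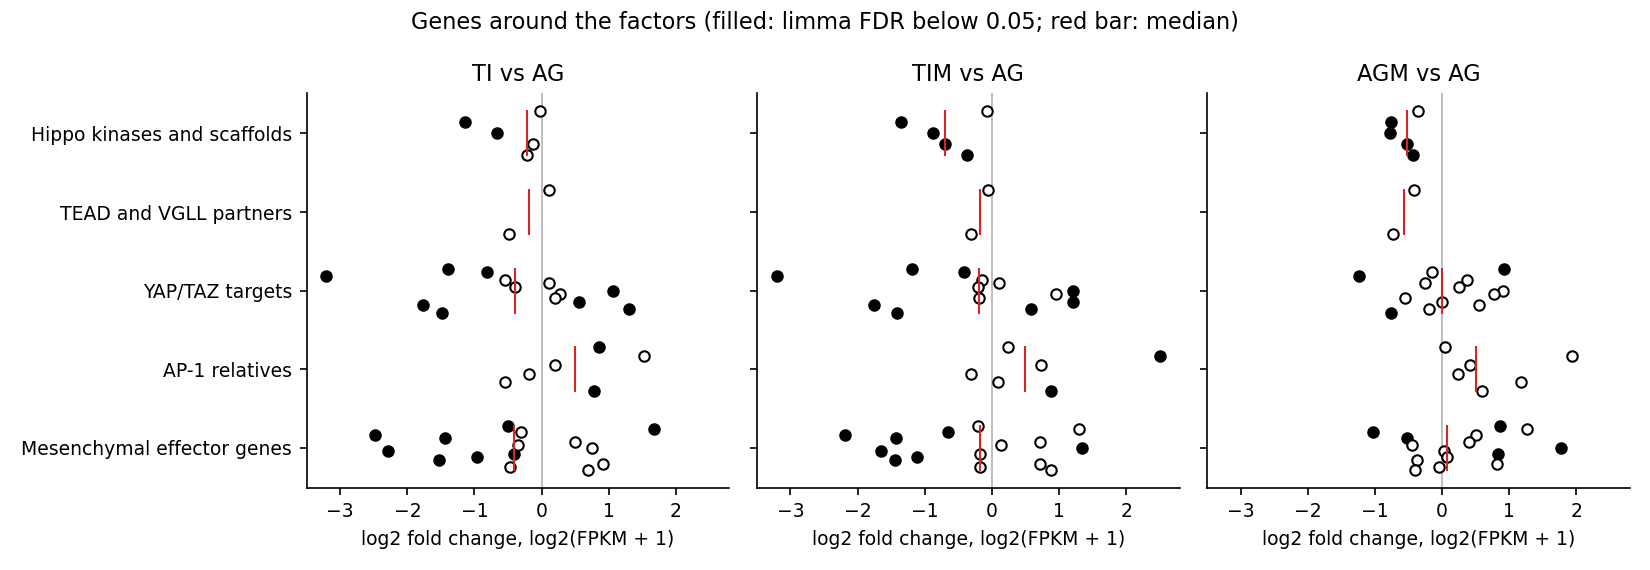
Log2 fold changes on the log2(FPKM + 1) scale for the tested genes of 5 lists in TI vs AG, TIM vs AG and AGM vs AG, with filled points for limma FDR below 0.05, open points for genes that did not pass and a red bar at the median of the list. YAP/TAZ targets and mesenchymal effector genes lay on both sides of 0.

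Zeb2 (chr2:44873644-45007464, minus strand) was lower in all other groups than in AG, AGM included. Its values were 1.29, 1.30 and 1.27 FPKM in AG and 0.284, 0.467, 0.216, 0.269 and 0.180 FPKM in AGM. TI held 0.0808 to 0.311 FPKM (median 0.227) and TIM 0.0493 to 0.374 FPKM (median 0.102). AG overlapped with no other group. Zeb2 passed the filter only through AG, so the calls below that involve AG were favoured by the filter. The mean was 4.54-fold lower in AGM, 6.0-fold lower in TI and 8.01-fold lower in TIM than in AG, with log2 fold changes of -0.84 ± 0.10, -0.92 ± 0.09 and -0.99 ± 0.09 (limma FDR 6.89e-07, 1.59e-08 and 4.81e-09). TIM differed from AGM by -0.15 ± 0.08 (limma FDR 0.0950) and from TI by -0.07 ± 0.07 (limma FDR 0.493). The change TIM vs AGM was smaller than TI vs AG by 0.77 (limma FDR 6.83e-05), in an interaction that was added after the data were seen and called 10% of tested genes. That call was lost with limma-voom on recovered reads (limma FDR 0.0630).

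Zeb1, the paralog of Zeb2, did not fall in tumors. It measured 1.0 ± 0.0625 FPKM in AG, 0.635 ± 0.161 in AGM, 1.78 ± 0.489 in TI and 1.31 ± 0.408 in TIM (SD), and rose by 0.46 in TI vs AG (limma FDR 0.0147). The log2 ratio of Zeb1 to Zeb2 was -0.37 ± 0.11 in AG, 1.20 ± 0.24 in AGM, 3.15 ± 0.59 in TI and 3.33 ± 1.30 in TIM (SD). It was higher than in AG in TI and TIM (adjusted p = 0.0101 for both, exact permutation) and in AGM (adjusted p = 0.0223, exact permutation), and TIM exceeded AGM (adjusted p = 0.0101, exact permutation) with overlapping ranges. Exons of Zeb2 share 871 bases with the antisense gene Zeb2os. Whether the authors' counting used the strand is not given in the sources used here, so reads of the pair may be mixed.

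Twist1 (chr12:34007645-34009828, plus strand) was the member that differed most between glands. It measured 0.189, 0.198 and 0.284 FPKM in AG and 4.42, 5.71, 4.74, 4.62 and 4.17 FPKM in AGM. TI ranged from 0 to 0.301 FPKM (median 0.0209), with 0 reads in 1 library. TIM was split, with 4.35, 4.08, 3.23 and 1.22 FPKM in 4 tumors and 0.107 to 0.400 FPKM in the other 4. The AGM mean was 21.2-fold that of AG (log2 fold change 2.22 ± 0.42, limma FDR 0.000341). Twist1 passed the filter only through AGM and TIM, so the calls of AGM vs AG and TIM vs TI were favoured by the filter. Adrenal capsule markers were also higher in AGM, with sums of 7.39 to 10.8 FPKM beside 3.86 to 4.05 FPKM in AG, and Tcf21 and Rspo3 of that list rose by 1.68 and 0.63 (limma FDR 1.29e-14 and 2.11e-05), and their part in the level of Twist1 was not tested. TIM exceeded TI by 1.04 ± 0.29 (limma FDR 0.0125) and lay below AGM by 1.38 on the log2 scale (-1.38 ± 0.33, limma FDR 0.000875). Against AG, TIM gave 0.84 ± 0.39 (limma FDR 0.0735) and TI -0.19 ± 0.39 (limma FDR 0.732), neither past the threshold. The call of TIM vs TI was lost when only these 2 groups set the spread (limma FDR 0.0531). All AGM samples, 3 TIM samples and 1 TI sample were sequenced in run 2. All 3 AG samples and 6 TI samples were sequenced in run 1, which held no AGM or TIM sample. The other 5 TIM samples and 1 TI sample were in run 3. Since columns cannot be tied to runs, the part of the run in the levels of Twist1 was not tested.

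Snai1, a relative of Snai2, rose by 0.92 in AGM vs AG (limma FDR 3e-06) and fell by 0.58 in TI vs AG and 0.48 in TIM vs AG (limma FDR 0.000124 and 0.000994). It reached 1 FPKM only in AGM (2.02 to 2.96 FPKM, at most 0.983 in AG), so the filter favoured the call of AGM vs AG. Of 5 EMT relatives listed, only Snai1 and Zeb1 passed the filter.

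Snai2 (chr16:14523425-14527252, plus strand) had few reads, from 2 to 114 per library. It measured 0.111, 0.103 and 0.121 FPKM in AG and 0.236 to 0.671 FPKM in AGM, and its ranges in TI (0.00773 to 0.202 FPKM, median 0.0379) and TIM (0.0440 to 0.633 FPKM, median 0.192) overlapped. The mean RPM was 1.37 in AG, 3.95 in AGM, 0.734 in TI and 2.8 in TIM. The 5 AGM libraries all exceeded AG, but the test did not pass (exact permutation, adjusted p = 0.134), while limma on all genes without the filter called it (limma FDR 0.0272). TIM vs TI did not pass (3.82-fold higher in RPM, 6.02-fold without the highest TI library, exact permutation, adjusted p = 0.114). Among the 5997 genes below the filter with reads in at least 12 libraries, the same test called 26.9% in AGM vs AG and 20.8% in TIM vs TI.

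Prrx1 (chr1:163041844-163142033, minus strand) gave no call in any of the 5 contrasts. Its level was 0.109, 0.129 and 0.157 FPKM in AG, 0.117 to 0.281 FPKM in AGM, 0.0208 to 0.271 FPKM in TI (median 0.0540) and 0.0506 to 0.200 FPKM in TIM (median 0.115). The smallest adjusted p was 0.693 (exact permutation), and 7 of 8 TI tumors lay below all AG libraries. In TI, Prrx1 correlated with fibroblast and stroma markers (r = 0.949, rho = 0.929, exact permutation, adjusted p = 0.031 and 0.179, r = 0.762 without the 2 farthest tumors). In TIM it correlated with adipocyte markers (r = 0.868, rho = 0.81, exact permutation, adjusted p = 0.031 and 0.248, r = 0.737 without the 2 farthest) and with adrenal cortex markers (r = 0.768, rho = 0.833, exact permutation, adjusted p = 0.031 and 0.246, r = 0.815 without the 2 farthest).

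Fosl2 (chr5:32292707-32315186, plus strand) had the highest mean of the 10 genes in every group, in TIM through 1 library of 7.09 FPKM that lay above all AG libraries. It measured 3.98, 5.63 and 4.24 FPKM in AG and 16.4, 15.8, 13.9, 17.2 and 10.1 FPKM in AGM. TI held 0.153 to 2.04 FPKM (median 0.617) and TIM 0.329 to 7.09 FPKM (median 1.43). The mean of AGM was 3.18-fold that of AG, and TI was 5.24-fold and TIM 2.29-fold lower than AG. Without the highest TIM library, TIM was 3.57-fold lower than AG. The log2 fold change was -1.64 ± 0.39 in TI and -1.15 ± 0.39 in TIM vs AG (limma FDR 0.00125 and 0.0177), and 1.47 ± 0.42 in AGM vs AG (limma FDR 0.0119). TIM lay below AGM in all 8 tumors (-2.62 ± 0.33, limma FDR 4.09e-07) and did not differ from TI by the test (0.49 ± 0.29, limma FDR 0.227). In AGM vs AG the limma FDR was 0.0835 at a pseudocount of 0.1, 0.0532 on recomputed FPKM, 0.202 by limma-voom and 0.0531 without 1 AG library, all above 0.05. Without another AG library, TIM vs AG was lost as well (limma FDR 0.0827).

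**Figure D5:**
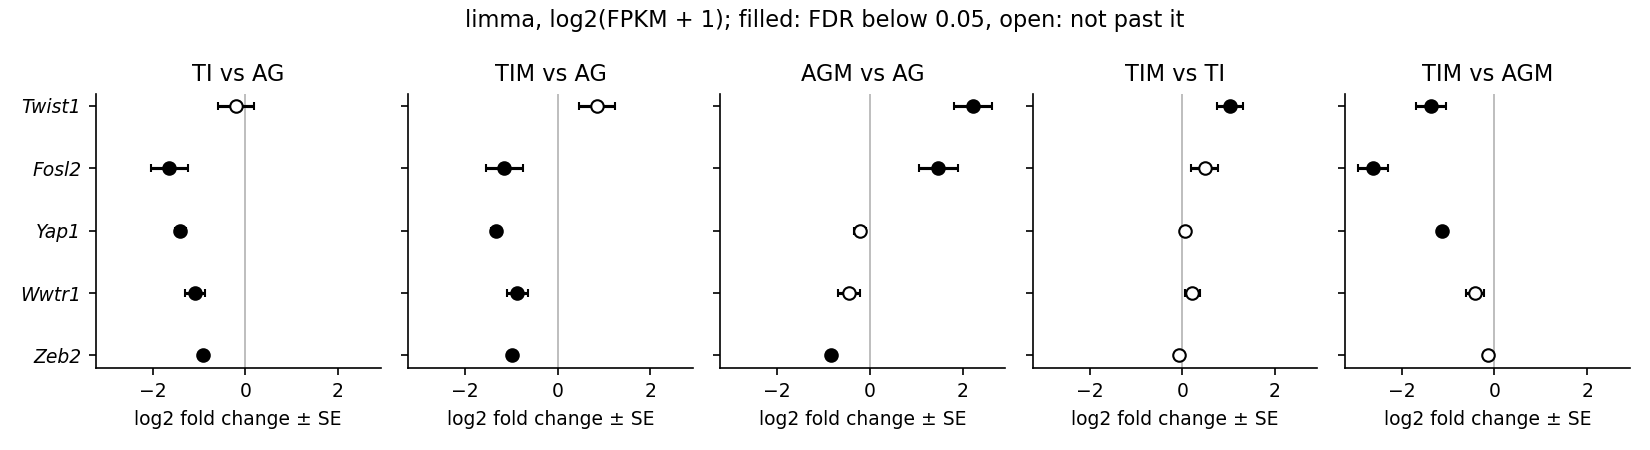
Log2 fold changes ± SE of the 5 tested genes in the 5 contrasts from limma on log2(FPKM + 1), with filled points for FDR below 0.05. Yap1, Wwtr1, Zeb2 and Fosl2 lay below 0 in both tumor groups against AG, and Twist1 and Fosl2 above 0 in AGM vs AG.

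Of 6 AP-1 relatives, all tested, 2 rose and 4 did not pass in each tumor group against AG, a share called of 33.3% beside 52.4% (TI) and 51% (TIM) of all tested genes. Fos, the founding FOS gene, measured 0.101 ± 0.0838 FPKM in AG and 10.3 ± 15.7 FPKM in TIM (SD), a change of 2.51 (limma FDR 0.00733). The TIM median was 3.34 FPKM, and the highest library held 46.4 FPKM. Fos was also 3.68 ± 2.19 FPKM in AGM and 3.36 ± 4.67 FPKM in TI (SD), and TIM vs AGM was not called (0.57, limma FDR 0.433). Jund rose by 0.78 in TI and 0.89 in TIM (limma FDR 0.0376 and 0.0198), and Batf3 by 0.86 in TI (limma FDR 0.000201). Batf3 reached 1 FPKM only in TI, so the filter favoured its call. Over the 16 tumors, with the mean of the tumor group removed, the genes most like Fosl2 were Nr4a1 (r = 0.974), Fosb (0.921) and Nr4a3 (0.906), which are rapidly induced genes. Tumor pieces share library and handling, and these correlations are a description.

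Fosl1 (chr19:5497575-5505974, plus strand) was at the limit of detection, with 3 to 4 reads per AG library and 1 to 22 in the others. Its level was 0.0139, 0.0138 and 0.0187 FPKM in AG, and the ranges were 0.00568 to 0.0910 FPKM in AGM, 0.0283 to 0.0995 FPKM in TI and 0.00526 to 0.119 FPKM in TIM. All 8 TI tumors exceeded AG, but the test did not pass (exact permutation, adjusted p = 0.0909), where 33.8% of genes below the filter were called. Its exons share 1163 bases with the antisense gene Ccdc85b, so these few reads may belong to either gene.

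Runx2 (chr17:44806874-45125684, minus strand) fell in every group against AG. It held 290, 292 and 390 reads in AG and 79 to 106 in AGM, 3 to 83 in TI (median 35.5) and 6 to 69 in TIM (median 20). In RPM the means were 18.6 in AG, 4.72 in AGM, 2.21 in TI and 1.41 in TIM, with AG above all other groups without overlap. The mean was 3.93-fold lower in AGM, 8.39-fold lower in TI and 13.2-fold lower in TIM than in AG (exact permutation, adjusted p = 0.0223, 0.0101 and 0.0101). TIM lay 3.36-fold below AGM (exact permutation, adjusted p = 0.00777) and did not differ from TI by the test (adjusted p = 0.226, exact permutation). In the same test 33.4% of genes below the filter were called in TIM vs AG and 36.2% in TIM vs AGM. With 3 libraries against 5 the smallest p that the test can give is 0.0179. Exons of Runx2 share 362 bases with the antisense gene Supt3 and 519 with Runx2os1.

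Runx1 (chr16:92398354-92623037, minus strand) did not fall with Runx2. The mean RPM was 5.12 ± 0.772 in AG, 3.54 ± 0.816 in AGM, 6.80 ± 3.87 in TI and 6.97 ± 1.69 in TIM (SD). TIM exceeded AGM in all 8 tumors (1.97-fold in RPM, exact permutation, adjusted p = 0.0117), and no other contrast passed. With limma on all genes without the filter, TIM vs AGM did not pass (limma FDR 0.0824). The log2 ratio of Runx1 to Runx2 was -2.30 ± 0.05 in AG, -0.87 ± 0.24 in AGM, 1.42 ± 1.44 in TI and 2.20 ± 0.98 in TIM (SD), so Runx2 exceeded Runx1 in all glands and the reverse held in all 16 tumors. TI and TIM differed from AG (exact permutation, adjusted p = 0.0101 for both), and AGM from AG (exact permutation, adjusted p = 0.0223). The 3 Runx2 reads of 1 TI library gave the highest ratio of TI (4.33). Cbfb, the shared partner, measured 4.43 ± 0.186 FPKM in AG, 4.83 ± 1.26 in TI and 3.91 ± 0.832 in TIM (SD) and was not called against AG in either tumor group.

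Per length, Fosl2 led the order of levels in each group, but without the highest TIM library Twist1 (1.38 FPKM) lay above it (1.29 FPKM) in TIM. In AG the order was Fosl2, Wwtr1, Yap1, Zeb2, Runx2, Twist1, Prrx1, Snai2, Runx1 and Fosl1, from 4.62 down to 0.0154 FPKM, and neighbours overlapped only for Wwtr1 with Yap1 and Prrx1 with Snai2. In AGM, Twist1 was second after Fosl2 without overlap. In TI the order ran from Fosl2 (0.880 ± 0.646 FPKM) and Wwtr1 (0.472 ± 0.469) to Runx2 (0.0417 ± 0.0271), and in TIM from Fosl2 (2.02 ± 2.23), Twist1 (1.71 ± 1.86) and Wwtr1 (0.726 ± 0.572) to Runx2 (0.0289 ± 0.0225, all SD, n = 8). All neighbours overlapped in both tumor groups. Among the tested members, Yap1 and Wwtr1 were most alike over the 16 tumors with group means removed (r = 0.916), and all other pairs lay between -0.25 and 0.45. The genes most like Yap1 were Syde1 (0.985), Rarg (0.975) and Zcchc24 (0.970), those most like Wwtr1 were Tgfbr2 (0.967), Denn2b (0.954) and Lama4 (0.950), those most like Zeb2 were Ptk2 (0.876), Rsu1 (0.861) and Antxr2 (0.861), and those most like Twist1 were Pdzrn4 (0.825), Pgam1 (0.810) and Cdpf1 (0.783).

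Of 16 effector genes of the mesenchymal state, 15 were tested. In TI vs AG 1 rose, 7 fell and 7 did not pass (median -0.41), in TIM vs AG 1 rose, 6 fell and 8 did not pass (median -0.17), and none was called in TIM vs TI (limma). The share called, 53.3% in TI and 46.7% in TIM, was near the 52.4% and 51% of all tested genes. Notch2, a Notch receptor tied to the mesenchymal state, fell from 2.03 ± 0.216 FPKM in AG to 0.117 ± 0.0446 in TI and 0.128 ± 0.0792 in TIM (SD, limma FDR 1.48e-13 and 1.67e-13). Notch2 passed the filter through its gland values, which favoured these calls. Lgals1, which encodes galectin-1, fell by 2.49 and 2.18 (limma FDR 2.87e-05 and 0.000142), Sparc, a matrix protein gene, by 2.29 and 1.66 (limma FDR 0.000368 and 0.00627), and Tgfbr2, a TGF-beta receptor, by 1.53 and 1.44 (limma FDR 4.12e-06 and 9.82e-06). Fn1, which encodes fibronectin, rose in TI by 1.68 (limma FDR 0.0144). Of the 470 genes in the mouse version of a published mesenchymal signature, which holds Prrx1, Snai2, Yap1 and Wwtr1, 350 were tested. In TI vs AG 28 rose and 174 fell (median -0.54), and in TIM vs AG 37 rose and 169 fell (median -0.46), beside medians of 0.00 over all genes. In AGM vs AG 44 rose and 55 fell (median 0.03). The share called was 57.7% in TI vs AG, 58.9% in TIM vs AG and 28.3% in AGM vs AG. Over all tested genes it was 52.4%, 51% and 28.6%. Of all tested genes, 2505 were called higher and 2822 lower in TI vs AG, and 2293 and 2897 in TIM vs AG.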

How the data were processed

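RNA of frozen adrenal gland and tumor pieces was sequenced after poly(A) enrichment. Per the labels, the authors used cutadapt 2.8, HISAT2 2.1.0 (mm39), SAMtools 1.10, featureCounts 2.0.0 and edgeR 3.40, and the methods of the study name ComBat-seq batch correction and TMM normalization. The deposited values are FPKM on the scale set by the authors. Batch correction can shift the values of low genes strongly. Deposited log2 fold changes, p-values and FDR of the authors' own comparisons were not used. Columns were assigned to groups by name (0 columns without a group), not to samples.

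FPKM times gene length gave whole reads (tolerance 0.01), used for RPM. These are corrected values, and statements on reads cover counting error only. limma 3.58.1 (R 4.3.3, eBayes with an intensity trend) was fitted to log2(FPKM + 1) of all 24 libraries in 4 groups, with Benjamini-Hochberg adjustment. On simulated data for TI vs AG (9442 genes), 198 of 200 genes given a large, fixed change were recovered, with 11 false calls (5.26% of those called). The simulation left out low genes, smaller changes and batch correction, so it gives no power for these. Exact permutation tests used every split of the libraries (Python 3.11.15, scipy 1.17.1). Promoters and positions were read from GRCm39 with GENCODE M39. All 10 members are named. Genes of the pathway lists were named if they passed the threshold, at most 4 per list and contrast by absolute fold change, with Ccn1 and Ccn2 added after their values were seen. The 3 genes most like each tested member over the tumors were named. Members and lists were chosen with earlier results of these data known. Alternatives were another pseudocount and filter, recomputed FPKM, limma-voom, no intensity trend, the spread of the compared groups alone, and each library left out.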

Additional observations from a re-analysis of the deposited data

Results flagged for a closer look

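Of 30 groups of members tested for a library that stood apart (the gap to its neighbour against the whole range, Dixon's 95% value), 7 were found. The nominal rate of 1 in 20 holds for independent values of normal spread. FPKM need not have such a spread, and members measured in 1 library are not independent, so the count is a description. In TI, 1 library stood apart for Yap1 (0.487 FPKM, next 0.180), Wwtr1 (1.59 FPKM, next 0.611) and Prrx1 (0.271 FPKM, next 0.107), and this was the library with the highest stroma and endothelial marker sums. Other TI libraries stood apart for Twist1 (0.301 FPKM, next 0.122) and Snai2 (0.202 FPKM, next 0.0864). In AGM, 1 library stood apart for Prrx1 (0.281 FPKM, next 0.158), and in TIM 1 library for Fosl2 (7.09 FPKM, next 2.66).

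For Zeb2, the change of TIM vs AGM and that of TI vs AG differed by 0.77 on the log2(FPKM + 1) scale (limma FDR 6.83e-05). Its level was 1.29 FPKM in AG and 0.283 FPKM in AGM on average, and 0.215 and 0.161 FPKM in TI and TIM. The run of AG and AGM cannot be told apart from the group. Zeb2 passed the filter only through AG, which favoured the call of this difference.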

How the results depend on the processing

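No paired analysis was run, since the groups came from mice of different genotypes and the labels named no pairs. The columns also carry no replicate number that matches the sample titles. No tested call turned direction, but differences that did not pass did so between RPM and FPKM for Prrx1 in AGM vs AG (-0.565 RPM, 0.0338 FPKM) and Fosl1 in TIM vs AGM (0.00252 RPM, -0.00581 FPKM). The genes called in AGM vs AG rose from 2908 to 4482 with recomputed FPKM and 6312 with the spread of these groups alone, and ranged from 1896 to 3326 with 1 library left out, and those in TIM vs TI fell from 2332 to 1309 with the spread of these groups alone. Recomputed FPKM moved the share of higher genes among those called from 51.2% to 20.4% in AGM vs AG (14.4% with limma-voom), from 43.6% to 27.6% in TIM vs TI and from 48.8% to 62.0% in TIM vs AGM, and limma-voom moved TIM vs AG from 44.2% to 31.5%. The cause was not tested. The calls of Yap1, Wwtr1 and Zeb2 in TI and TIM vs AG held under every alternative run. Wwtr1 in TIM vs AGM passed with a pseudocount of 0.1 (limma FDR 0.0454) and in 3 of 24 fits without 1 library, Twist1 in TIM vs AG passed in 4 of 24 (limma FDR 0.0318 to 0.0490), and Twist1 in TI vs AG passed when these groups alone set the spread (0.0458). Fosl2 in TIM vs AG was lost when these groups alone set the spread (limma FDR 0.0769). Runx2 in AGM vs AG gave an adjusted exact permutation p of 0.0595 without any 1 AG library, and Snai2 in TIM vs TI passed without 1 TI library (exact permutation, adjusted p = 0.0225) or 1 TIM library (0.0404). In the same way Snai2 in TI vs AG (exact permutation, adjusted p = 0.0225) and Fosl1 in TI vs AG (0.0417) passed without 1 TI library each, and Zeb2 in TIM vs AGM without either of 2 TIM libraries (limma FDR 0.0478 and 0.0343). The ratios of means in the text without 1 library were added after seeing the data. Fosl1 rests on 1 to 22 reads per library, and no statement on its change was possible at this depth.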
